A study of Mus musculus with 56 samples.

Results

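The 10 genes described here encode the core of the interleukin-1 (IL-1) system and the inflammasome that activates it: the ligands Il1a, Il1b, Il18 and Il33, the antagonist Il1rn, the receptor chains Il1r1, Il1rap and Il1rl1, the sensor Nlrp3 and the protease Casp1. They were chosen by symbol from the 53431 features of an RNA-sequencing table of mouse front paws, and all 10 were found, each as 1 row. The paws came from 56 male DBA/1 mice, a strain prone to collagen-induced arthritis (CIA), in which immunisation with type II collagen leads to autoimmune inflammation of the joints. Each library was a separate mouse. The no CIA group held 4 mice. The other 52 mice were immunised with chicken type II collagen on days 1 and 21 and were injected into the peritoneum 2 times a week for 5 weeks, starting on day 21. There were 4 such groups of 13 mice each. The isotype group was given a control antibody at 30 mg/kg. The anti-TNF group was given clone XT3.11 at 30 mg/kg, and the anti-IL-6 group was given clone MP5-20F3, dosed at 10 mg/kg. The combination group received the anti-TNF and the anti-IL-6 clones together, each at its own dose. RNA was taken on day 91, when the injections had ended. Ages of the mice are not stated in these sources.

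IL-1α and IL-1β bind the same receptor, Il1r1, which pairs with the accessory chain Il1rap to start signalling through Myd88, and Il1rn encodes a secreted antagonist that occupies Il1r1 without signalling. IL-1β and IL-18 are made as inactive precursors and are cut to their active forms by caspase-1, the protease that the Nlrp3 inflammasome activates. Transcription of Il1b and of Nlrp3 is the priming step of this route and is induced by signals that activate NF-kB, whereas IL-1α and IL-33 are stored in epithelial and stromal cells and act when cells are damaged. In joints, IL-1 is known to induce chemokines and matrix proteases in synovial fibroblasts and cartilage. RNA levels do not report how much of each precursor was cut or secreted.

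In the GRCm38 mouse genome, Il1a (ENSMUSG00000027399.1) lies on the minus strand of chromosome 2 at 129299610 to 129309972. Il1b (ENSMUSG00000027398.13) follows it on the same strand at 129364570 to 129371139, with a gap of 54.6 kb between them. Il1rn (ENSMUSG00000026981.15) lies on the plus strand of the same chromosome at 24336853 to 24351494. Il1r1 (ENSMUSG00000026072.12) and Il1rl1 (ENSMUSG00000026069.15) lie on the plus strand of chromosome 1, at 40225080 to 40317257 and at 40429570 to 40465415, with Il1rl2 between them. Il18 (ENSMUSG00000039217.13) and Casp1 (ENSMUSG00000025888.5) are both on the plus strand of chromosome 9, at 50554827 to 50581840 and at 5298517 to 5307265. Il1rap (ENSMUSG00000022514.14) spans 26581704 to 26730117 on chromosome 16, Il33 (ENSMUSG00000024810.16) spans 29925114 to 29960718 on chromosome 19 and Nlrp3 (ENSMUSG00000032691.14) spans 59541568 to 59566956 on chromosome 11, all on the plus strand. The annotation places the antisense transcript Il1bos over Il1b, Gm20319 antisense to Il1rap, Gm14023 opposite Il1a, and Bco2 and Tex12 opposite Il18. The strand setting of the counting is not given in the sources used here, so reads of these partners cannot be told apart from reads of the genes.

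Sequences upstream of the starts of Il1b, Nlrp3, Il1a and Il18 are shown because the first pair and the second pair form the opposite ends of the pattern described below. Each run holds the 150 bases before a start site in RefSeq (GRCm38.p6), 5′ to 3′ on the strand of the gene. Capitals mark matches to the C/EBP motif TTGNNNAA, read on either strand. For Il1b the last 6 capitals are the first bases of a match that runs past the start. The windows are chr2:129371140-129371289 (minus strand), chr11:59541419-59541568 (plus), chr2:129309973-129310122 (minus) and chr9:50554550-50554699 (plus).
Il1b: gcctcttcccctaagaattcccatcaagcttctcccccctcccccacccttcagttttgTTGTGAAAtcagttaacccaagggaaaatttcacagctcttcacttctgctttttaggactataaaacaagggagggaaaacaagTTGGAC
Nlrp3: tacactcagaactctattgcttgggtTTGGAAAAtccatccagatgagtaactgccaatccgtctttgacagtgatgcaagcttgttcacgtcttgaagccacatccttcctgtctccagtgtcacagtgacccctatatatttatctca
Il1a: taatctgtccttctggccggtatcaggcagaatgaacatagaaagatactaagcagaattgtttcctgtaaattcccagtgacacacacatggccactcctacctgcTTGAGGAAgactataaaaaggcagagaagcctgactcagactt
Il18: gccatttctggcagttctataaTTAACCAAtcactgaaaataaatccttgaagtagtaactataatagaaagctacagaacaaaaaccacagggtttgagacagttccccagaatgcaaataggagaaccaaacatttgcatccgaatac

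The C/EBP letters occurred 91 and 6 bases before the Il1b start, 124 before the Nlrp3 start, 43 before the Il1a start and, on the reverse strand, 128 before the Il18 start. Over all 16 RefSeq windows of the 10 genes (250 bases before to 50 after each start, both strands), 12 windows of 9 genes held this motif, and Il1rap was the gene without it. It is a common motif, present in 36.7% of all 32851 windows. The NF-kB forms (GGG, then any 2 bases, then TTTCC or TTCCC), held by 1.63% and 1.75% of all windows, occurred in 2 windows of Il1rn and in 1 window of Nlrp3, 186 bases before its start. The AP-1 motif TGANTCA, in 7.81% of all windows, lay 12 bases before the Il1a start and in 1 window of Il1rn. The STAT motif TTCNNNGAA (8.3% of all windows) was in none of the 16, the ISRE (GAAA 2 times with any 2 bases between, 3.44%) was in 1 window of Il1rap, and the E-box CACGTG (7.15%) was in 1 window of Casp1. These matches describe the letters of short windows only and say nothing of binding.

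Levels are in FPKM, a count of fragments scaled to the length of the transcript and to the size of the library, which puts genes of different length on 1 scale. Estimated depth was 40.1 to 54.9 M fragments a library. At that depth Il1b rested on an estimated 49 to 11952 fragments a library (median 444) and Nlrp3, the gene with the lowest level of the 10, on 23 to 1002 (median 100). Tests were made with limma on log2(FPKM + 1) over the 14700 genes whose mean FPKM reached 1 in some group, and a gene was called at an adjusted p under 0.05. Differences are on that log2 scale, which understates the change of low genes such as Nlrp3. Mouse numbers run in blocks by group, except that mouse 2 of the anti-IL-6 block is labelled anti-TNF and mouse 20 of the anti-TNF block anti-IL-6, so treatment and the order of handling can hardly be told apart. All 10 genes were tested, but Nlrp3 reached a mean FPKM of 1 only in the anti-IL-6 group (1.25), and without anti-IL-6 replicate 13 it would not have been tested. In whole paws, fewer cells of a type and less RNA per cell cannot be told apart either.

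In paws without CIA the 10 genes spanned a wide range of levels. Il18 was highest at 63.3 ± 8.12 FPKM (SD, n = 4), followed by Casp1 at 28.6 ± 6.27 and Il1rn at 14.9 ± 3.39. The ranges of these genes did not overlap, so the order Il18, Casp1, Il1rn, then all others held in each of the 4 mice. Il1r1 (6.48 ± 0.703), Il33 (6.16 ± 0.348) and Il1a (5.29 ± 1.51) came next and overlapped one another. Il1rap (2.54 ± 0.375), Il1b (1.34 ± 1.22) and Il1rl1 (0.919 ± 0.121) formed a lower set in which neighbours also overlapped. Nlrp3 was lowest at 0.161 ± 0.0407 FPKM, below every value of the other 9 genes. Paws without CIA therefore held much RNA for Il18 and Casp1 and little for Il1b and for the inflammasome sensor.

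The main differences after immunisation were in Il1b, Nlrp3, Il1r1, Il1rl1 and Il33, which had higher mean levels in all 4 immunised groups than in the no CIA group, and in Il1a and Il18, which had lower means. None of them passed the test across all genes. What stood out was the spread between mice of 1 group, which the plot of levels by mouse shows. The within-group SD of Il1b was 1.74 on the log2 scale, greater than that of 99.9% of the tested genes, where the median gene had 0.219. Il1rl1 had 0.757 (greater than 94.1% of genes), whereas Casp1 and Il1rap had 0.303 and 0.258. Groups accounted for 12.8% of the variance of Il1b and 3.46% of that of Casp1, against 9.46% for the median gene.

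**Figure D1:**
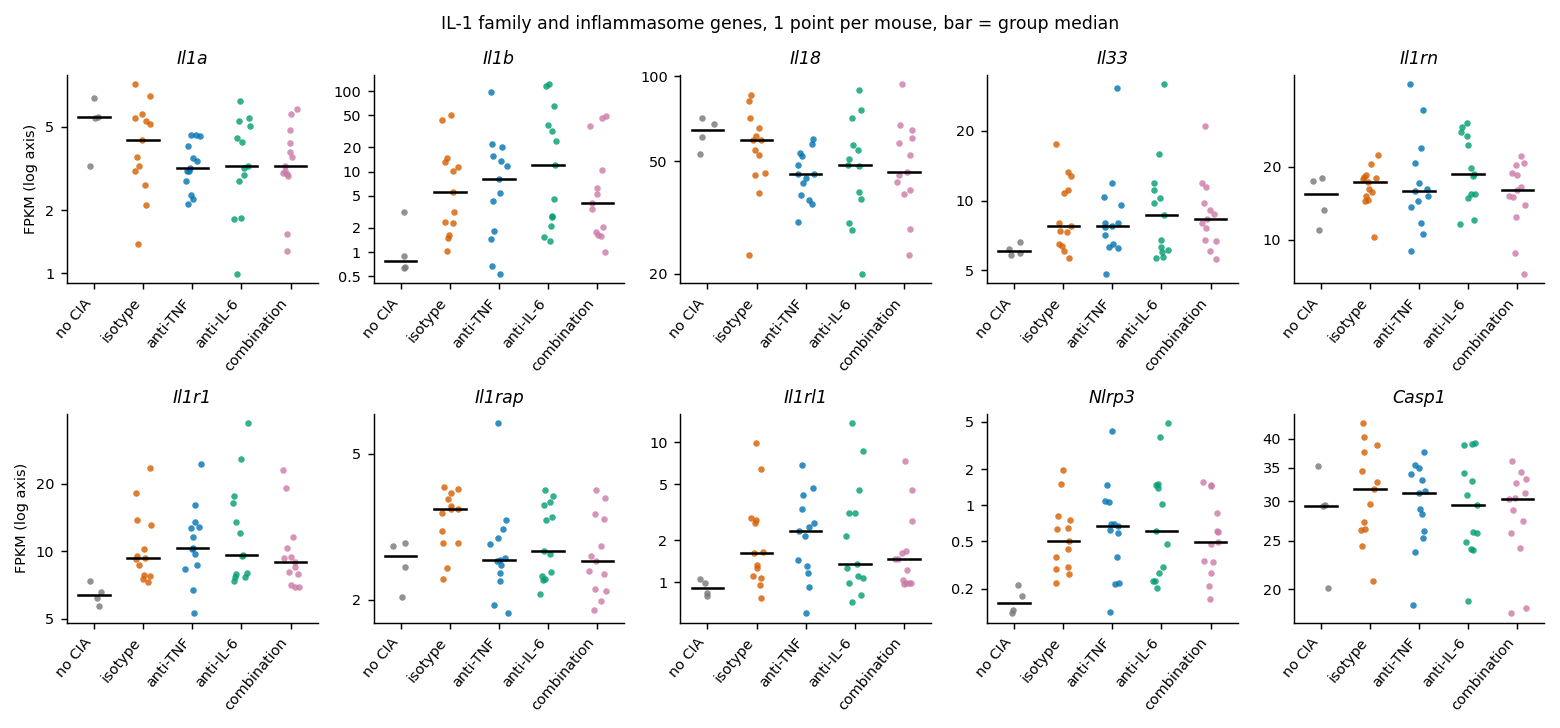
Level of each of the 10 genes in FPKM (vertical log axes) in each mouse, by group; 1 point is 1 mouse and the bar is the group median. Nlrp3 lay above the highest no CIA value (0.213 FPKM) in 48 of 52 immunised mice, Il1b in 32, Il18 in 6 and Il1a in 2.

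Il1b, the inflammatory ligand made mainly by myeloid cells, read 3.16, 0.651, 0.904 and 0.640 FPKM in the 4 no CIA mice. In the isotype group it ran from 1.03 to 51.1 with a median of 5.59, and under anti-TNF from 0.538 to 97.8 with a median of 8.13. The anti-IL-6 group ran from 1.37 to 122.8 (median 12.2) and the combination group from 1.01 to 49.2 (median 4.04). Every immunised group thus held mice within the no CIA range together with mice far above it. All 4 groups overlapped one another and the no CIA group. The upper part of the no CIA range rests on replicate 1 alone, at 3.16. The lowest isotype, anti-IL-6 and combination mice, at 1.03, 1.37 and 1.01, lay above 0.904, the next highest no CIA value. Of the 52 immunised mice, 32 lay above the highest no CIA mouse, 19 within the no CIA range and 1 below it. The log2 difference of the 4 immunised groups from no CIA was 2.04 ± 0.887 (SE, limma adjusted p = 0.190, unadjusted 0.0254), and that of isotype alone was 1.82 ± 0.977 (adjusted p = 0.326).

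Il1a, the ligand held ready in keratinocytes and other barrier cells, went the other way in its means. It read 5.53, 5.54, 3.24 and 6.86 FPKM in the no CIA mice. The isotype group ran from 1.38 to 7.98 with a median of 4.32, and the medians under anti-TNF, anti-IL-6 and the combination were 3.20, 3.24 and 3.25. The groups overlapped: 23 immunised mice lay below every no CIA mouse, 27 within their range and 2 above. The difference of the 4 immunised groups from no CIA was -0.45 ± 0.244 (limma adjusted p = 0.276).

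Il18, whose product drives interferon-γ release and whose precursor epithelia hold at rest, read 71.35, 61.02, 52.9 and 67.8 FPKM without CIA. In the isotype group it ran from 23.3 to 86.2 (median 59.3) and in the combination group from 23.4 to 93.96 (median 45.7). Under anti-TNF it ran from 30.5 to 60.1 (median 45.0), and under anti-IL-6 from 19.96 to 89.5 (median 48.7). Below every no CIA mouse lay 31 of the 52 immunised mice, and 6 lay above, so the groups overlapped. The difference from no CIA over the 4 groups was -0.38 ± 0.242 (limma adjusted p = 0.341).

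Il33, an alarmin stored in the nuclei of fibroblasts, endothelium and epithelia, was tight in the no CIA mice at 6.20, 6.64, 5.97 and 5.85 FPKM. Its median was 7.79 in isotype, 7.77 under anti-TNF, 8.62 under anti-IL-6 and 8.29 in the combination, with highest mice at 17.6, 30.65, 31.7 and 20.9. Above every no CIA mouse were 37 immunised mice, and 5 were below. The difference over the 4 groups was 0.46 ± 0.273 (limma adjusted p = 0.312).

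Il1rn, the natural antagonist of the receptor, read 18.0, 13.2, 11.0 and 17.5 FPKM in the no CIA mice, and its group medians were 17.3 in isotype, 15.8 under anti-TNF, 18.7 under anti-IL-6 and 15.97 in the combination. The highest value, 43.8, was anti-TNF replicate 4. Of the 52 immunised mice 21 lay above every no CIA mouse, 26 within their range and 5 below. The difference of the 4 immunised groups from no CIA was 0.20 ± 0.231 (limma adjusted p = 0.599, 95% interval -0.26 to 0.67). Set per mouse against its antagonist, Il1b was below Il1rn in all 4 no CIA mice, with ratios of 0.0366 to 0.175. It exceeded Il1rn in 14 of the 52 immunised mice: 2 isotype, 4 anti-TNF, 5 anti-IL-6 and 3 combination mice, with a highest ratio of 4.998. The median ratio was 0.507, 0.356, 0.454 and 0.260 in these groups. Whether a mouse passes a ratio of 1 depends on the transcript lengths behind the deposited values, which are not given.

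Among the receptor chains, Il1r1, the signalling receptor of both IL-1 forms, read 7.38, 6.63, 6.19 and 5.72 FPKM without CIA. Its median was 9.33 in isotype, 10.4 under anti-TNF, 9.66 under anti-IL-6 and 8.97 in the combination, with highest mice at 23.6, 24.6, 37.3 and 23.1. It lay above every no CIA mouse in 45 of 52 immunised mice, within their range in 6 and below in 1. The difference over the 4 groups was 0.67 ± 0.275 (limma adjusted p = 0.176, unadjusted 0.0185), the smallest adjusted p of the 10 genes in that comparison. Il1rl1, the IL-33 receptor ST2, which also has a secreted decoy form, read 0.843, 1.05, 0.986 and 0.795 FPKM without CIA. Its group medians were 1.61, 2.30, 1.35 and 1.45 in the order isotype, anti-TNF, anti-IL-6 and combination, and its highest mice were at 9.945, 6.91, 13.7 and 7.31. Of the immunised mice 40 lay above and 3 below every no CIA mouse, and the difference was 0.69 ± 0.386 (limma adjusted p = 0.282).

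Il1rap, the accessory chain that both receptors need, had the smallest within-group SD of these genes on the log2(FPKM + 1) scale. It was 0.258, against 0.303 for Casp1. That order depends on the scale, which compresses low genes. In FPKM the immunised mice ran from 1.84 to 6.045 for Il1rap and from 17.9 to 42.95 for Casp1, a wider ratio for Il1rap. Without CIA Il1rap read 2.80, 2.46, 2.04 and 2.85 FPKM. Its medians were 3.54 in isotype, 2.57 under anti-TNF, 2.72 under anti-IL-6 and 2.55 in the combination. The isotype group had the highest median and overlapped each other group. Its difference from no CIA was 0.29 ± 0.146 in the isotype group (limma adjusted p = 0.306) and 0.15 ± 0.133 over the 4 immunised groups (adjusted p = 0.503).

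Nlrp3, the sensor of the inflammasome, read 0.172, 0.213, 0.133 and 0.1245 FPKM without CIA. In isotype mice it ran from 0.222 to 1.96 (median 0.4995), under anti-TNF from 0.127 to 4.21 (median 0.672), under anti-IL-6 from 0.203 to 4.84 (median 0.609) and in the combination from 0.1645 to 1.57 (median 0.487). Each of the 13 isotype mice lay above each of the 4 no CIA mice, by the narrow margin of 0.222 against 0.213. No other member was free of overlap between isotype and no CIA, and 1.59% of all tested genes lay wholly higher in isotype. On the log2(FPKM + 1) scale the isotype difference was 0.47 ± 0.300 (limma adjusted p = 0.393), and an exact permutation test of this gene alone, two-sided over 2380 splits, gave p = 0.0286. Nlrp3 was not alone in this: the same test, unadjusted for the 10 genes, gave p = 0.0193 for Il1r1, 0.02185 for Il1rap and 0.03655 for Il1b. For the remaining members it gave 0.0609 or more. Over the 4 immunised groups the difference was 0.58 ± 0.272 (limma adjusted p = 0.216). It came to 1.49 with a pseudocount of 0.1 in place of 1 and to 0.09 with a pseudocount of 10. Casp1, the protease of the inflammasome, read 35.3, 29.4, 20.1 and 29.3 FPKM without CIA and had medians of 31.7, 31.1, 29.4 and 30.35 in isotype, anti-TNF, anti-IL-6 and combination mice. Its difference over the 4 groups was 0.07 ± 0.155 (limma adjusted p = 0.806, 95% interval -0.24 to 0.38).

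The comparisons with no CIA asked which genes differ in paws of immunised mice, and limma called 0 of the 10 genes in each of the 5. For isotype against no CIA it called 0.156% of all tested genes, and 1 of the 10 had an unadjusted p under 0.05, against 2449 of 14700 genes. Over the 4 immunised groups, where 0.633% of all genes were called, the unadjusted p was under 0.05 for 3 of the 10 (Il1b, Il1r1 and Nlrp3), against 3092 of all genes. The shares called were 0.551% for anti-TNF, 0.558% for anti-IL-6 and 0.156% for the combination against no CIA, and 1, 3 and 0 of the 10 had an unadjusted p under 0.05, against 2809, 4138 and 1543 of the 14700 genes. The median log2 difference of the 10 was 0.37 in isotype, 0.32 under anti-TNF, 0.45 under anti-IL-6 and 0.25 in the combination, beside 0.03, 0.03, 0.07 and 0.02 for all tested genes. These 4 comparisons share the same 4 no CIA mice. The largest single difference was that of Il1b under anti-IL-6, at 2.67 ± 0.977 (limma adjusted p = 0.118), with Il1r1 at 0.82 ± 0.303 (0.120) and Nlrp3 at 0.75 ± 0.300 (0.127) beside it. Nlrp3 entered the tests only through its mean in this same anti-IL-6 group, so its tests in these comparisons depend on that group.

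Cell-type scores moved with these levels. The neutrophil score, the mean log2(FPKM + 1) of 10 markers, was 1.94 to 2.33 in no CIA mice and 1.96 to 4.80 in isotype mice, and the macrophage score was 3.93 to 4.13 against 3.95 to 5.75. All 10 markers of each list were found. In the neutrophil list Ly6g, Stfa2l1 and Mrgpra2b had highest values of 0.142, 0.157 and 0.207 FPKM in no CIA paws. Their isotype medians were also low, at 0.349, 0.517 and 0.233. Without CIA, S100a8 read 7.69 to 21.4 and S100a9 8.81 to 24.1, and Retnlg, Cxcr2, Csf3r and Mmp8 lay between 0.108 and 2.18. Asprv1 of that list, which the epidermis also makes, read 684 to 1222 (median 1145). Its median was lower in isotype (897.7), under anti-TNF (750.4), under anti-IL-6 (778.8) and in the combination (720.7). Every other marker of the neutrophil list had a higher median in each immunised group than without CIA. The keratinocyte score was 9.39 to 10.2 without CIA and 8.35 to 10.25 in isotype mice, and the skeletal muscle score 9.45 to 11.6 against 7.75 to 11.4. With the neutrophil score as a covariate the difference of the 4 immunised groups from no CIA became -0.11 for Il1b, 0.04 for Il1r1, -0.18 for Il1rl1 and -0.08 for Nlrp3. With muscle and keratinocyte scores as covariates it was 0.62 for Il1b, 0.21 for Il1r1 and -0.17 for Il1a.

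For the analysis the index numbers in the titles were cut into 5 stretches, with new stretches starting at 45, 58, 71 and 84. The numbers run on across these cuts, and the labels do not name the stretches as batches. In this division the 4 no CIA libraries share their stretch with 2 isotype libraries only. Those 2 held Il1b at 43.6 and 51.1 FPKM, against a mean of 1.34 in the no CIA mice, and Nlrp3 at 1.495 and 1.96 against 0.161. They held Il1a at a mean of 2.23 against 5.29, and Il18 at 23.3 and 38.7 against 63.3. With the stretch as a covariate, which rests on these 2 mice, limma called Il1b, Il1r1, Il1rl1 and Nlrp3 for isotype against no CIA. Over the 4 immunised groups it called 7 of the 10. In these 2 comparisons it called 2744 and 2879 of all 14700 tested genes, against 23 and 93 without the covariate. With a weight per library in place of equal weights, 4 of the 10 and 4965 of all tested genes were called over the 4 groups. Calls under these settings are therefore not particular to these genes.

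The comparisons of the antibodies with isotype asked whether earlier blockade of TNF, IL-6 or both left the genes at other levels. Limma called 0 of the 10 in each. Under anti-TNF 0% of all 14700 genes were called, and 1 of the 10, Il1rap, had an unadjusted p under 0.05, against 804 of all genes. Il1b differed by 0.12 ± 0.671 (limma adjusted p = 0.993, 95% interval -1.23 to 1.47), Il1a by -0.24 ± 0.184, Il18 by -0.29 ± 0.183 and Il1rap by -0.20 ± 0.1004 (adjusted p = 0.911). The interval for Il1b reaches past 1 log2 unit on either side of 0, so a difference of that size was not excluded. Its value was -0.18 without anti-TNF replicate 4 and 0.35 without isotype replicate 4. The median difference of the 10 genes was 0.00, beside 0.01 for all genes.

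Under anti-IL-6, where 0.952% of all genes were called against isotype, 0 of the 10 had an unadjusted p under 0.05, against 1882 of all genes. Il1b differed by 0.85 ± 0.671 (limma adjusted p = 0.626, 95% interval -0.50 to 2.20), Nlrp3 by 0.28 ± 0.206, Il1rn by 0.22 ± 0.175 and Il1r1 by 0.19 ± 0.208. Single mice moved these values: without anti-IL-6 replicate 13 the difference was 0.59 for Il1b, 0.06 for Il1r1, -0.07 for Il1rl1 (0.11 with it) and -0.08 for Il33 (0.06 with it). It was 0.17 for Nlrp3 without anti-IL-6 replicate 12, and 1.08 for Il1b without isotype replicate 4. The combination group, where 0% of all genes were called against isotype and 850 had an unadjusted p under 0.05, had 1 such gene among the 10. That gene was Il1rap, at -0.23 ± 0.1004 (limma adjusted p = 0.838, 95% interval -0.43 to -0.03). Il1b differed by -0.09 ± 0.671 in the combination (95% interval -1.44 to 1.26), from -0.32 without combination replicate 5 to 0.14 without isotype replicate 4, and 2 of the 10 differences were above 0, against 46.6% of all tested genes.

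Between antibody groups limma called 0 of the 10 between anti-TNF and anti-IL-6 (0% of all genes called), combination and anti-TNF (0%) and combination and anti-IL-6 (0.102%). None of the 10 had an unadjusted p under 0.05 in these 3, against 688, 160 and 1671 of all genes. Il1b was lower in the combination than under anti-IL-6 alone by -0.94 ± 0.671 (limma adjusted p = 0.546) and Il1rn by -0.34 ± 0.175 (adjusted p = 0.448). The test of whether the effect of both antibodies departs from the sum of the single effects called 0.116% of all genes and 0 of the 10, with 0 at an unadjusted p under 0.05 against 1407 of all genes. Its value for Il1b was -1.06 ± 0.948 (limma adjusted p = 0.682).

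**Figure D2:**
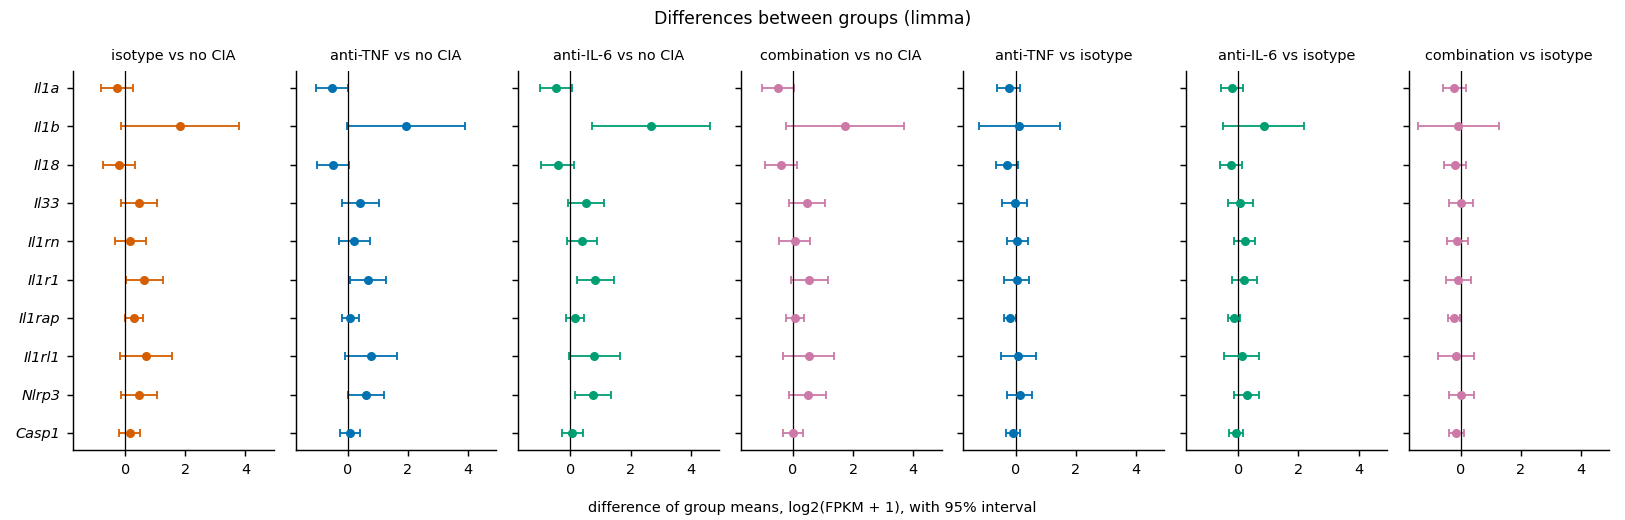
Log2 difference of each of the 10 genes (horizontal axis, log2(FPKM + 1) scale) in 4 comparisons with no CIA and 3 with isotype; points are limma estimates and bars 95% intervals. Il1b has the widest bars, and its point is at 1.82 for isotype against no CIA and at 0.12 for anti-TNF against isotype.

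Because the spread within groups was so wide, the genes were compared mouse by mouse over the 52 immunised libraries with group means removed. The 10 genes fell into sets. Il1b, Nlrp3, Il1r1, Il1rl1 and Il33 went together, with Pearson r of 0.79 to 0.96 between them. Il1a, Il18 and Casp1 formed another set, and Il1rn and Il1rap went with each other. In all 210 relations were computed, of which 120 were between a gene and a marker score. Permutation p-values were adjusted over the 14700 tested genes for each gene or score, and 1e-05 is the smallest raw p that 100000 permutations can give. Many genes of a paw move together: 65.3% of all tested genes correlated with Il1b and 46.7% with Il1a at an adjusted p under 0.05, so passing that threshold is not particular to these genes.

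Il1b and Nlrp3, which are primed by the same signals, had r = 0.925 and Spearman rho = 0.952 (permutation adjusted p = 3.45e-05 and 3.38e-05). Without the 2 libraries farthest from the median r was 0.933, within the 4 groups it was 0.903 to 0.955 and within the index stretches 0.903 to 0.948. Il1r1 and Il1rl1, which lie 112.3 kb apart, had r = 0.962 and rho = 0.938 (permutation adjusted p = 3.06e-05 and 2.83e-05), with 0.931 to 0.988 within groups, 0.771 to 0.986 within stretches and 0.948 without the 2 farthest. Mice with high Il1b RNA thus had high RNA for the sensor, and those with high Il1r1 had high Il1rl1, in each group and in each of the 4 stretches that hold immunised mice of several groups.

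Il1a and Il18, which lie on different chromosomes, had r = 0.895 and rho = 0.849 (permutation adjusted p = 8.07e-05 and 0.000117). Their r was 0.874 without the 2 farthest libraries, 0.551 to 0.969 within groups and 0.847 to 0.943 within stretches. Casp1 followed Il1a less closely, with r = 0.709 and rho = 0.672 (permutation adjusted p = 8.07e-05 and 0.000117), 0.665 without the 2 farthest and 0.322 to 0.908 within groups. Il1a and Il1b, the neighbours that share a receptor, went in opposite directions, with r = -0.511 and rho = -0.504 (permutation adjusted p = 0.000435 and 0.00071), -0.422 without the 2 farthest, -0.771 to -0.214 within groups and -0.788 to -0.160 within stretches. Both substrates of caspase-1 also went in opposite directions: Il18 and Il1b had r = -0.569 and rho = -0.591 (permutation adjusted p = 8.67e-05 and 8.69e-05), -0.493 without the 2 farthest and -0.836 to -0.233 within groups. Casp1 itself did not follow Il1b, with r = -0.0550 and rho = -0.0326 (permutation adjusted p = 0.755 and 0.859) and -0.488 to 0.562 within groups.

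The antagonist followed its ligand only in part. Il1rn and Il1b had r = 0.559 and rho = 0.550 (permutation adjusted p = 3.45e-05 and 0.000234), 0.534 without the 2 farthest and 0.215 to 0.737 within groups. Il1rn went more closely with Il1rap, at r = 0.740 and rho = 0.735 (permutation adjusted p = 6.27e-05 and 6.73e-05), 0.668 without the 2 farthest and 0.451 to 0.938 within groups.

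**Figure D3:**
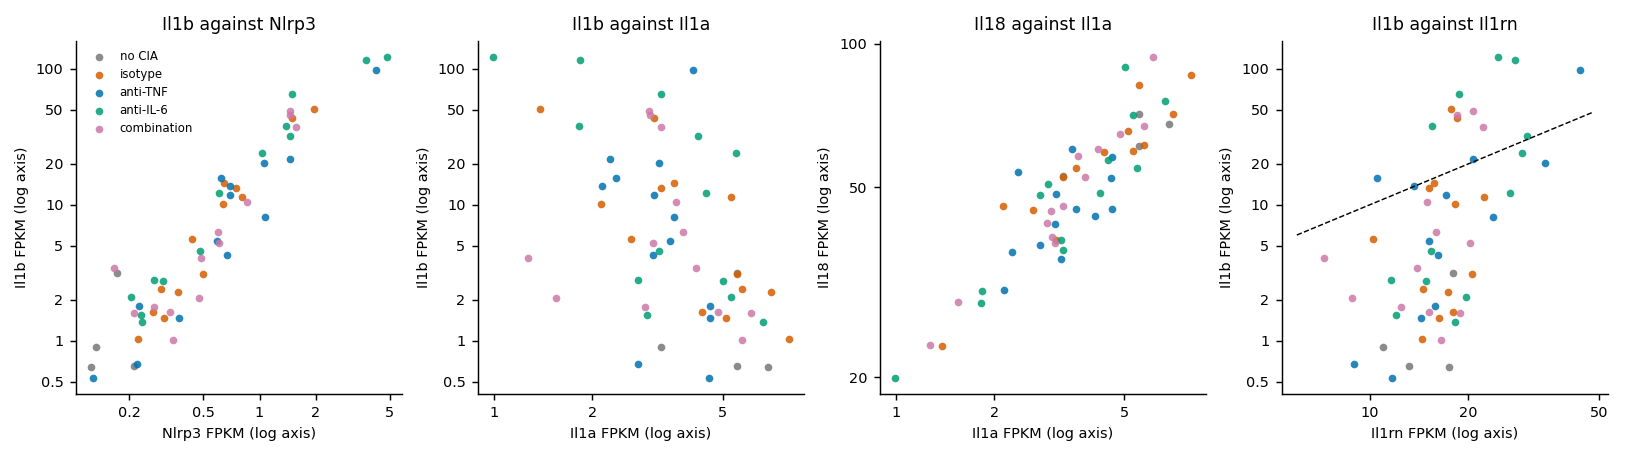
FPKM of 1 gene against another in each mouse (log axes, colour by group); the dashed line in the last panel marks equal FPKM. Il1b and Nlrp3 form 1 band with anti-IL-6 replicate 13 at its upper end (122.8 and 4.84 FPKM), Il18 and Il1a form another, and 14 immunised mice lie above the line of equal Il1b and Il1rn.

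The sets also differed in the cell markers they went with. Il1b followed the macrophage score with r = 0.877 and rho = 0.875 (permutation adjusted p = 3.30e-05 and 3.04e-05), 0.873 without the 2 farthest libraries, 0.858 to 0.931 within groups and 0.607 to 0.928 within stretches. It followed the neutrophil score with r = 0.824 and rho = 0.798 (permutation adjusted p = 4.44e-05 and 5.29e-05), 0.842 without the 2 farthest and 0.745 to 0.903 within groups. Over all 5 genes of that set r was 0.88 to 0.93 with the macrophage score and 0.68 to 0.82 with the neutrophil score. It was also high with the fibroblast score (0.67 for Il33 to 0.85 for Il1b) and the endothelium score (0.70 for Il33 to 0.80 for Il1rl1), so these genes did not follow leukocyte markers alone. Of all tested genes 65.2% correlated with the macrophage score, 61.5% with the neutrophil score, 66.3% with the fibroblast score and 60.8% with the endothelium score, in either direction.

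Il1a followed the keratinocyte score with r = 0.895 and rho = 0.878 (permutation adjusted p = 6.00e-05 and 7.37e-05), 0.865 without the 2 farthest and 0.770 to 0.966 within groups. Il18 and Casp1 had r of 0.887 and 0.773 with that score, and rho of 0.824 and 0.743. Of all tested genes 49.2% correlated with it, in either direction. Il1b had r = -0.528 and rho = -0.510 with it (permutation adjusted p = 0.000678 and 0.00152). Among the 12 scores Il1rn had its strongest relation with that of skeletal muscle, at r = -0.727 and rho = -0.699 (permutation adjusted p = 3.55e-05 and 3.59e-05), -0.684 without the 2 farthest. FPKM values of all tissues in a paw share 1 total, and the part of tissue make-up in these relations was not tested.

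**Figure D4:**
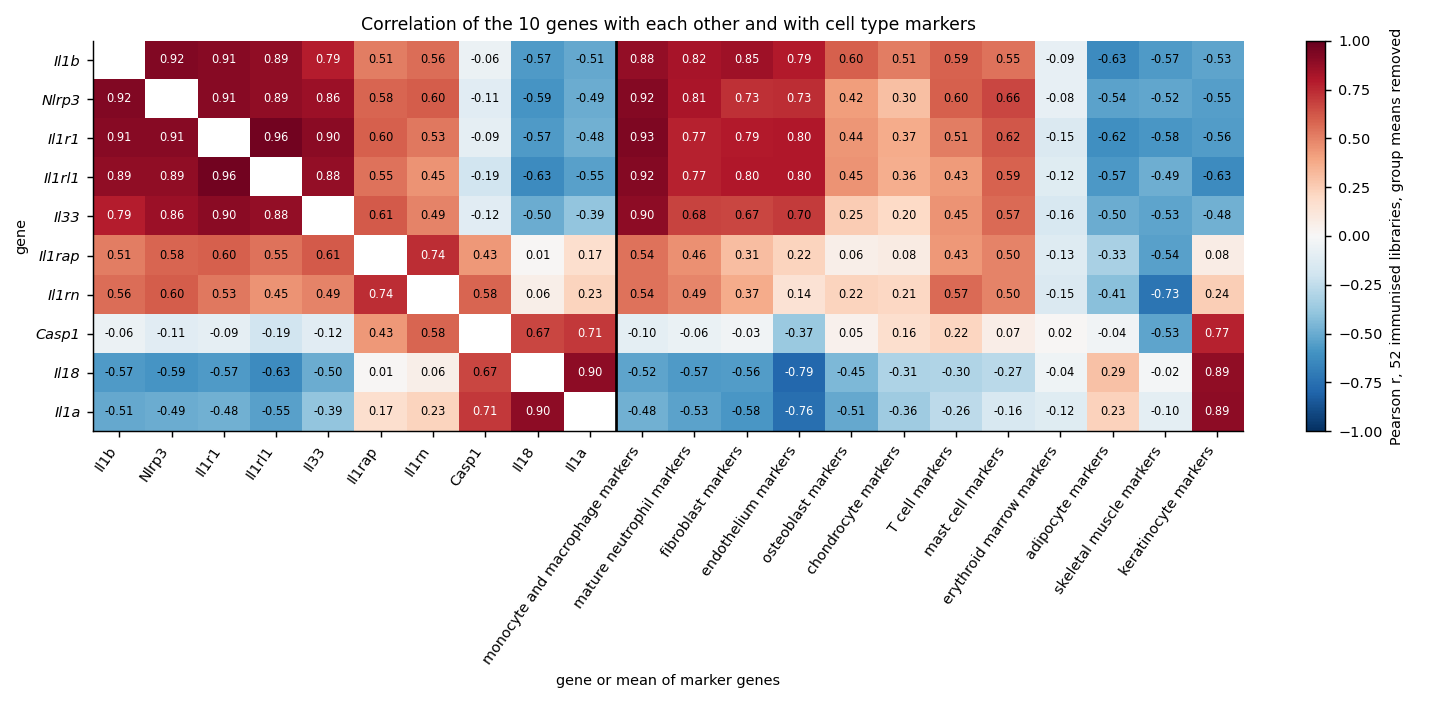
Pearson r of log2(FPKM + 1) between the 10 genes, and between them and 12 cell-type marker scores, over 52 immunised mice with group means removed (colour scale from -1 to 1). Il1b, Nlrp3, Il1r1, Il1rl1 and Il33 are high with the macrophage score (0.88 to 0.93), and Il1a and Il18 with the keratinocyte score (0.895 and 0.887).

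The genes nearest to each member by Pearson r over the same 52 mice give the company it keeps. Nearest to Il1b were Cd14 (r = 0.967), a co-receptor for bacterial lipopolysaccharide that is also in the macrophage list, Cxcl5 (0.965), a neutrophil chemoattractant, Clec4e (0.962) and Clec4d (0.962), myeloid lectin receptors, and Osm (0.957), a cytokine of the IL-6 family. Nearest to Nlrp3 were Osm (0.968), Mefv (0.966), which encodes the inflammasome sensor pyrin, and Trem1 (0.964), an amplifying receptor of neutrophils and monocytes. Il1r1 was nearest to Dram1 (0.974), Il4ra (0.972), the IL-4 receptor chain, and Entpd1 (0.968), an enzyme that degrades extracellular ATP. Il1rl1 was nearest to Il1r1 (0.962), Pcsk5 (0.961) and Golm1 (0.958), and Il33 to Serpina3n (0.917), Lrrc25 (0.913) and Cd300ld (0.913). Il1a was nearest to Kctd4 (0.950), Plcxd2 (0.946) and Rnf227 (0.939), and Il18 to Gm45609 (0.948), Sdcbp2 (0.947) and Serpina12 (0.945). Casp1 was nearest to Plpp6 (0.913), Rab38 (0.909) and Slc26a2 (0.907), a sulphate transporter. Il1rn was nearest to Hcar2 (0.907), Mob1a (0.879) and Cd44 (0.865), the hyaluronan receptor, and Il1rap to Mycbp2 (0.881), Dhx15 (0.874) and Bach1 (0.864).

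Single mice carried the extremes. Anti-IL-6 replicate 13 had the highest Il1b (122.8 FPKM), Il1r1 (37.3), Il33 (31.7), Il1rl1 (13.7) and Nlrp3 (4.84) of all mice, and the lowest Il1a (0.995) and Il18 (19.96). It also had the highest neutrophil and macrophage scores (5.49 and 6.73) and the lowest keratinocyte score (8.00). Isotype replicate 5 was its counterpart, with the highest Il1a (7.98) and Il1b at 1.03. Of the 10 immunised mice with the most Il1b, 9 were also among the top 10 for Il1r1, 8 for Nlrp3, 8 for Il1rl1, 7 for Il33, 4 for Il1rn, 1 for Casp1 and 0 for Il1a and Il18. Of the top 10 for Il1a, 7 were among those for Il18.

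Lists of related genes put the 10 in their pathway. Of 6 other ligands and antagonists of the family, all tested, none was called in any comparison. The 3 most abundant were the skin-expressed IL-36 genes: Il36rn, the IL-36 receptor antagonist, at 80.7 ± 28.8 FPKM in 52 immunised mice against 92.3 ± 18.5 in 4 no CIA mice, Il36a at 28.8 ± 14.1 against 26.65 ± 9.15, and Il36g at 27.0 ± 10.4 against 26.6 ± 4.69. Over the 52 immunised mice Il36rn and Il36a had r of 0.87 and 0.72 with Il1a, and -0.46 and -0.37 with Il1b. Of 7 other receptors of the family 5 were tested and none was called. The most abundant were Il1r2, the decoy receptor that binds IL-1 without signalling, at 29.4 ± 6.13 FPKM against 28.5 ± 3.82, Il1rl2, the IL-36 receptor, at 13.2 ± 2.13 against 12.6 ± 2.13, and Sigirr, an inhibitory receptor, at 5.18 ± 0.909 against 5.32 ± 0.651. In immunised paws the decoy Il1r2 thus had a higher mean FPKM than the signalling receptor Il1r1 in each group.

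All 16 genes of the IL-1 receptor signalling list were tested and none was called. Myd88, the adaptor that Il1r1 recruits, was at 27.2 ± 8.91 FPKM in immunised mice against 18.8 ± 1.54 (log2 difference 0.45 ± 0.201, limma adjusted p = 0.199), and over the immunised mice it had r = 0.88 with Il1b and 0.92 with Il1r1. Tollip, an inhibitor of the pathway, and Tab2, an adaptor of the kinase Tak1, were at 25.2 ± 2.58 against 25.5 ± 1.93 and at 23.5 ± 1.80 against 22.7 ± 1.48 FPKM. Of the 22 genes in the inflammasome list 13 were tested, and Bst1 in it is no inflammasome gene. Txnip, a thioredoxin-binding protein that can bind Nlrp3, was the 1 call over the 12 comparisons, at 142.0 ± 37.9 FPKM under anti-IL-6 against 204.4 ± 47.9 in isotype (log2 difference -0.53 ± 0.138, limma adjusted p = 0.0411). In that comparison 0.952% of all tested genes were called. Ninj1, which ruptures the membrane of dying cells, was at 42.9 ± 7.29 FPKM in immunised mice against 40.5 ± 1.85. Pycard, the adaptor that joins Nlrp3 to caspase-1, was at 32.9 ± 7.18 against 37.7 ± 8.35, and its r was 0.75 with Il1a, 0.82 with Il18 and -0.29 with Il1b.

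The 17 response genes, which IL-1 among other cytokines induces, held the largest differences. All 15 that were tested had a log2 difference above 0 against no CIA in each immunised group, with list medians of 1.76 in isotype, 1.74 under anti-TNF, 2.11 under anti-IL-6 and 1.395 in the combination, and 9, 11, 14 and 5 had an unadjusted p under 0.05. Of the 14700 tested genes 54.1% to 61.96% had a difference above 0 in these comparisons, and 2449, 2809, 4138 and 1543 had an unadjusted p under 0.05. A listed gene with a mean under 1 FPKM without CIA, such as Saa3, was tested only through a higher immunised group. For such genes the filter itself favoured a difference above 0. The 1 call was Icam1, an adhesion molecule for leukocytes, which rose by 1.13 ± 0.288 under anti-IL-6 against no CIA (limma adjusted p = 0.0494), where 0.558% of all tested genes were called. Mmp3 and Mmp13, matrix proteases, were at 217.7 ± 312.0 and 139.6 ± 124.8 FPKM in immunised mice against 8.08 ± 1.39 and 9.25 ± 6.10. Saa3, an acute-phase protein, was at 128.8 ± 312.1 against 0.796 ± 0.443. Their differences were 3.26 ± 1.09, 2.90 ± 1.15 and 4.12 ± 1.31 (limma adjusted p = 0.144, 0.170 and 0.130), and over the immunised mice Mmp3, Saa3 and Icam1 had r of 0.94, 0.92 and 0.91 with Il1b. Against isotype, the median of the 15 was 0.16 under anti-TNF, 0.49 under anti-IL-6 and -0.18 in the combination, with 0 calls and 0, 1 and 0 at an unadjusted p under 0.05. Of all 14700 genes, 804, 1882 and 850 had an unadjusted p under 0.05 there.

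Of 9 genes of cells that respond to IL-33, 4 were tested and none was called. Cpa3, a protease of mast cells, was at 22.4 ± 5.20 FPKM in immunised mice against 17.5 ± 4.79 (log2 difference 0.34 ± 0.158, limma adjusted p = 0.206). Gata3 and Rora, transcription factors of type 2 lymphoid cells that the skin also expresses, were at 15.5 ± 2.98 against 18.3 ± 4.38 and at 9.80 ± 2.81 against 12.05 ± 2.25 FPKM. Rora had r = 0.91 with Il1a. The other 5 listed genes had a mean FPKM under 1 in every group.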

How the data were processed

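RNA of 56 front paws was sequenced as paired-end reads from TruSeq Stranded mRNA libraries, per the labels' protocols. The values the authors deposited are in FPKM, a unit inferred from the numbers since no header names it. Aligner, build, annotation and strand setting: not given in the sources used here. Symbols were found for 52207 of 52244 Ensembl identifiers, and 51027 matched GENCODE M21 (GRCm38). Depth was estimated from the steps of low values of single-exon genes. All libraries entered 1 limma 3.58.1 fit in R 4.3.3 (trended, robust prior) on log2(FPKM + 1), with a mean per group, 51 residual degrees of freedom and 12 comparisons. P-values are two-sided and Benjamini-Hochberg adjusted over 14700 genes. Errors of differences are standard errors and those of levels standard deviations. Correlations used 100000 permutations within groups (Python 3.11.15, numpy 2.4.6, scipy 1.17.1, pandas 2.3.3, matplotlib 3.10.9).

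The members and gene lists were chosen with earlier results of these data known. All 10 members are named; of each list, per comparison, the called genes with the smallest p (at most 3), and for comparisons without a call the 3 with the highest mean FPKM; and for each member the 3 to 5 genes with the highest r. The scripts were tested on simulated data. Alternatives were pseudocounts of 0.1 and 10, no filter, median-of-ratios scaling, covariates, a weight per library, only the compared groups, and leaving out each library.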

Additional observations from a re-analysis of the deposited data

Results flagged for a closer look

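Il1b in no CIA replicate 1 was 3.16 FPKM, far from the other 3 mice of its group, which read 0.640 to 0.904. Its gap to the nearest of them, divided by the range of the group, was 0.895, above Dixon's limit for 4 samples, which chance passes in about 1 of 20 groups. All 10 genes were screened in this way at the high and the low end, and only this value passed the limit. The neutrophil score of this mouse, 1.94, was the lowest of the 4. Without it the log2 difference of Il1b between the 4 immunised groups and no CIA was 2.36 in place of 2.04, and the gene was still not called by limma. The cause was not tested.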

How the results depend on the processing

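The count of called members was 0 of 10 in all 12 comparisons, also with other pseudocounts, without the filter, with median-of-ratios scaling, and with tissue scores as covariates. It was also 0 in the 56 fits that each left out 1 library and in fits of the compared groups alone, which were made for 10 comparisons; Nlrp3 was under the filter without anti-IL-6 replicate 13 and in 6 of those 10. With the index stretch as covariate it was 4 for isotype, 7 for anti-TNF, 5 for anti-IL-6 and 7 for all 4 groups against no CIA, where limma also called 2744, 3264, 1608 and 2879 of all genes; this rests on 2 isotype libraries. Weighting the libraries gave 6 for anti-TNF, 3 for anti-IL-6 and 4 for all 4 groups against no CIA, with 6971, 4132 and 4965 of all genes called. The cause was not tested. Of 120 relations between members and marker scores 83 passed, against 41 within isotype, 33 within anti-TNF, 47 within anti-IL-6 and 23 within the combination, each on 13 libraries. Over the 52 libraries 36.3% (mast cell) to 68.9% (skeletal muscle) of all tested genes also passed with a score, apart from the erythroid score (0.748%). Passing is therefore not particular to the members. Within anti-TNF, r with the keratinocyte score turned positive for Il1r1 (0.0821), Il33 (0.190) and Nlrp3 (0.155), and r of Casp1 with the endothelium score became 0.229; within the combination r of Il1rap with the T cell score became -0.00654. No paired analysis was possible because the replicate numbers were assigned in accession order and link no mice across groups. With 4 no CIA mice and the wide spread of Il1b, differences of a log2 unit are hard to detect, and the lowest levels of Nlrp3 rest on few fragments.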

Other observations

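Further single mice held extreme values. Anti-TNF replicate 4 had Il1b at 97.8 FPKM and Nlrp3 at 4.21, and it also had the highest Il1rn (43.8) and Il1rap (6.045) of all 56 mice. Combination replicate 1 had the lowest Il1rn (7.24) and Casp1 (17.9) of all mice, with Il1a at 1.27. Anti-IL-6 replicate 12 had Il1b at 116.0 FPKM, second to anti-IL-6 replicate 13. Anti-TNF replicate 13 had the lowest Il1b (0.538) and Nlrp3 (0.127) of the immunised mice, below every no CIA mouse for Il1b.

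Of further listed genes, chosen after their values were seen, Il36b, an IL-36 ligand of the skin, had r = 0.92 with Il1a over the 52 immunised mice. Gsdmd, the pore-forming substrate of caspase-1, had r = 0.89 with Il1b, and Il18rap, the accessory chain of the IL-18 receptor, had r = 0.94 with Il1r1. The erythroid score correlated with none of the 10 genes (permutation adjusted p = 0.9999 for r and 0.999 for rho in each).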
